A study of Mus musculus with 4 samples.

Results

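Read counts at the start sites of 7 genes of nutrient uptake and growth were examined in regulatory T cells (Tregs) with and without KAP1. The genes were Slc1a5 (ENSMUSG00000001918), Slc7a5 (ENSMUSG00000040010), Slc3a2 (ENSMUSG00000010095), Slc2a1 (ENSMUSG00000028645), Hk2 (ENSMUSG00000000628), Mtor (ENSMUSG00000028991) and Myc (ENSMUSG00000022346), found by identifier among the 51121 start site windows that were counted. They were chosen by their function around the amino acid transporter gene Slc1a5, with earlier results of these data known, and each had 1 window. The libraries came from sorted spleen Tregs of C57BL/6 mice. Both genotypes carry Foxp3cre, a recombinase expressed from the Foxp3 locus and so in Foxp3-expressing cells: the wild type cells are KAP1+/+ and the KAP1-deficient cells KAP1f/f, with a floxed allele that the recombinase removes. The labels describe an anti-H3K9me3 immunoprecipitate and an input for each genotype, 4 samples in all. The counted table has 1 column per genotype, whose heading names no antibody. Both columns are read here as H3K9me3 because the study's design describes sequencing of precipitated chromatin. How many animals gave each library, and their age, is not given in the sources used here. Counts around start sites do not measure expression, so the Treg identity of the cells could not be checked against marker genes.

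KAP1, encoded by Trim28, is a co-repressor that KRAB zinc finger proteins bring to DNA, where it recruits the SETDB1 methyltransferase that deposits H3K9me3, a mark of silenced chromatin. Start sites of active genes generally carry little of this mark. T cells that divide take up more glucose and amino acids, and the genes studied here belong to that supply line: transporters bring nutrients in, mTOR senses amino acids and drives growth, and Myc raises the expression of transporters and glycolytic enzymes. Slc1a5 encodes ASCT2, an exchanger of neutral amino acids that carries glutamine into the cell. From prior knowledge of the study, and not from the files used here, it is the gene of this set in which the study took an interest as one restrained by KAP1 in Tregs. The comparison below asks whether the reads at its start site, and at those of related genes, were fewer without KAP1. Because counts around start sites do not measure expression, it does not test whether KAP1 restrains Slc1a5 expression.

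The wild type library held 480326 reads in all windows and the KAP1-deficient library 228009, so the former held 2.11 times as many. The median window held 10 and 4 reads. With 1 library per genotype there is no spread between replicates. No p-value is given, and every interval below is an exact 95% interval that covers counting error only. Ratios are KAP1-deficient over wild type, with each count divided by the total of its library over all windows. Below, library size and library totals mean these totals, not all reads sequenced. This scaling hides any change in the overall amount of the mark. All 7 windows passed the minimum of a mean of 5 reads over the libraries, as did 35540 windows in all.

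The genes lie on 6 chromosomes of build GRCm38.p6 (mm10), by the RefSeq annotation. Slc1a5 spans chr7:16781334-16798274, with no other gene overlapping it. Hk2 at chr6:82725025-82774454 and Myc at chr15:61985341-61990361 were likewise free of overlapping genes, with 9055 and 21857 bases to their nearest neighbours. The other members have a close or overlapping neighbour. At its higher coordinate Slc3a2 (chr19:8706882-8723369) lies 117 bases from Snhg1, a noncoding host gene of small nucleolar RNAs, and Slc7a5 (chr8:121881146-121907686) lies 146 bases from the noncoding gene BC048644. Slc2a1 at chr4:119108745-119137330 overlaps the noncoding gene Gm52706 at its lower coordinate and contains Gm12867, and Mtor at chr4:148448582-148557685 contains Angptl7, Gm24002 and Gm23318. The sources used here give neither the width of the counted windows nor the annotation behind them, so whether neighbouring windows share reads with a member was not tested.

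RefSeq start sites with sequence were matched for 4 of the 7 genes: Slc2a1, Slc3a2, Mtor and Hk2. The 250 bases before the start are shown for Slc3a2 and Hk2, the matched genes with the most and the fewest KAP1-deficient reads, 5′ to 3′ on the gene's strand. They lie at chr19:8713898-8714147 and chr6:82774455-82774704, both on the minus strand of GRCm38.p6. Capitals mark GC boxes (GGGCGG) and CCAAT boxes (CCAAT), searched on both strands.
Slc3a2: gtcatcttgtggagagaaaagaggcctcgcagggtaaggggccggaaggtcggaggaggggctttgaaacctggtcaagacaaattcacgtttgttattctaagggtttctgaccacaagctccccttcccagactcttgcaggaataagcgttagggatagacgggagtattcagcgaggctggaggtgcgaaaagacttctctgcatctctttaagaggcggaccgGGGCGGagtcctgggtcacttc
Hk2: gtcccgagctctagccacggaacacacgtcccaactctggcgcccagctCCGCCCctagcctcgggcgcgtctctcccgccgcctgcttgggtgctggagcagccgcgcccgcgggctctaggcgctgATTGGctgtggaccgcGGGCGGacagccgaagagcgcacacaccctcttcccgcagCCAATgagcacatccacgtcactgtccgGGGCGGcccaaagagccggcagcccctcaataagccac
CpG, the dinucleotide at which mammalian DNA is methylated, was counted in each. The Slc3a2 stretch held 11 and that of Slc2a1 held 13, above the median of 6 but within the quartiles of 2 and 16 over 32851 RefSeq promoters of this length. Mtor with 19 and Hk2 with 25 lay above the upper quartile. GC boxes were found in all 4 (1 in Slc3a2, 2 in Slc2a1, 2 in Mtor and 3 in Hk2) and in 32.7% of all promoters. CCAAT boxes were found in Mtor (4) and Hk2 (2) and in 33.8% of all promoters. No motif found overlapped another. The Myc E-box (CACGTG, in 6.02% of all promoters), the TATA box (TATAAA, in 12.4%) and an amino acid response element core (TGATGNAAN, in 3.44%) were searched on both strands and had no match in the 4 stretches. The RefSeq start of Slc3a2 lies 9472 bases inside the gene's outer end, so the counted Slc3a2 window may lie elsewhere.

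Relative to library size, the Slc1a5 window did not have fewer reads in the KAP1-deficient library. Its window held 16 reads in wild type cells (9.15 to 26.0) and 10 in KAP1-deficient cells (4.80 to 18.4). On the scale of 100000 reads in windows these are 3.33 and 4.39, a ratio of 1.32 (0.53 to 3.09). At the ratio of the library totals, 16 wild type reads correspond to 7.60 KAP1-deficient reads, so the 10 observed were above that value by less than counting error. The interval holds a ratio of 1, and the counts leave room for ratios from 0.53 to 3.09.

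The Slc1a5 window was moderately rich in reads in both libraries. Its count exceeded 84.4% of all windows in the wild type library and 91.4% in the KAP1-deficient library, where 4413 windows, Slc1a5 included, had 10 reads or more. Its ratio was ordinary: with 2 reads added, scaled to library size, the log2 ratio was 0.35, and 28.2% of windows past the filter had a higher one. Of the 805 other windows that also held 26 reads over both libraries, 23.9% had more KAP1-deficient reads than Slc1a5 and 66.0% had fewer. The same pair of counts, 16 and 10, occurred in 82 other windows.

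A window was called if its ratio with 2 reads added reached 2-fold, up or down, and the 95% interval excluded 1. By this rule 1.81% of the 35540 windows past the filter were called lower and 2.49% higher in the KAP1-deficient library. Of the 7 members 0 were called lower and 0 higher, and the interval of each held 1, as it did for 95.5% of all windows past the filter. The rule needs a wide margin at these depths. A window with the 16 wild type reads of Slc1a5 is called lower only at 1 KAP1-deficient read or none, and higher only at 17 or more. For a window with 13 wild type reads, as at Slc2a1 and Hk2, the limits were 0 and 15.

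**Figure D1:**
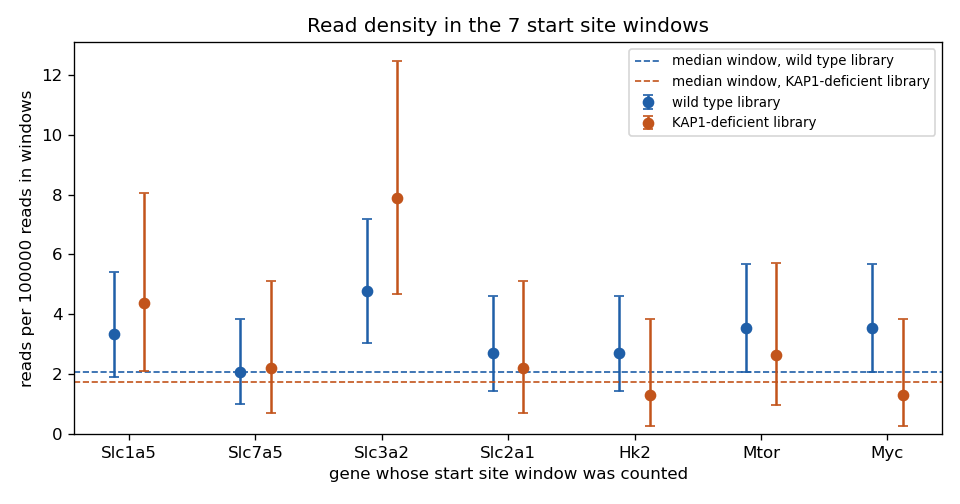
Reads per 100000 reads in all windows (y axis) at the 7 start site windows (x axis), with blue points for the wild type and orange points for the KAP1-deficient library. Bars are exact 95% Poisson intervals and dashed lines the median window of each library. Slc3a2 stands highest in both libraries, at 4.79 and 7.89, and the bars of the libraries overlap at every gene.

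Slc3a2 and Slc7a5 encode the chains of CD98/LAT1, the exchanger that imports large neutral amino acids such as leucine. Slc3a2, the heavy chain, held the most reads of the set in both libraries, 23 in wild type cells (14.6 to 34.5) and 18 in KAP1-deficient cells (10.7 to 28.4). Counting Slc3a2 itself, 971 windows held at least as many wild type reads and 317 at least as many KAP1-deficient reads. Its ratio of 1.65 (0.84 to 3.19) was the highest of the 7, and 14.1% of windows past the filter had a higher log2 ratio than its 0.66.

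The depth of the Slc3a2 window places it among windows that as a group had a higher ratio. It fell in the top decile of windows by reads over both libraries (27 or more), where the summed ratio was 1.20 (1.18 to 1.21). Relative to that decile the Slc3a2 ratio was 1.37. Of the 46 other windows with 41 reads in all, 28.3% had more KAP1-deficient reads and 54.3% fewer. The other deciles that hold members, the fourth to the ninth, had summed ratios between 0.94 and 1.03.

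Slc7a5, the light chain that forms the transport path, was the member nearest to the typical window. Its window held 10 wild type reads (4.80 to 18.4), equal to the median of all windows, and 5 KAP1-deficient reads (1.62 to 11.7), against 4.75 expected at the ratio of library totals. The ratio was 1.05 (0.28 to 3.38), and 537 other windows held the same pair of counts. The reads of the 3 amino acid transporter genes summed to 49 and 33, a ratio of 1.42 (0.88 to 2.25). Relative to the ratio expected from their deciles of reads, this was 1.29. Without Slc3a2 the sum of Slc1a5 and Slc7a5 was 26 and 15, a ratio of 1.22 (0.60 to 2.38).

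Slc2a1 and Hk2 act at the entry of glucose: Slc2a1 encodes the transporter GLUT1, and hexokinase 2 phosphorylates glucose in the first step of glycolysis. Both windows held 13 reads in the wild type library (6.92 to 22.2), more than 69.5% of all windows. In the KAP1-deficient library Slc2a1 held 5 (1.62 to 11.7) and Hk2 held 3 (0.62 to 8.77), where 6.17 correspond to the ratio of library totals. The ratios were 0.81 (0.23 to 2.42) for Slc2a1 and 0.49 (0.09 to 1.77) for Hk2. The lower Hk2 ratio rests on 2 fewer reads, and the interval of each gene holds the ratio of the other. The log2 ratio of Hk2 with 2 reads added, -0.80, was below that of 85.5% of windows past the filter.

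Mtor and Myc are the regulators of the set: mTOR is the kinase of a complex that responds to amino acids, and Myc is the transcription factor of the growth program. Both windows held 17 reads in the wild type library (9.90 to 27.2), above 87.9% of all windows. In the KAP1-deficient library Mtor held 6 (2.2 to 13.1) and Myc held 3 (0.62 to 8.77), where 8.07 correspond to the ratio of library totals. The Mtor ratio was 0.74 (0.24 to 1.98).

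Myc had the lowest ratio of the 7, 0.37 (0.07 to 1.29). Its log2 ratio with 2 reads added was -1.13, past the 2-fold size of a call, but its interval held 1, so it was not called. Of all windows past the filter, 6.81% had a lower log2 ratio. Of the 1802 other windows that held 20 reads over both libraries, 2.72% had fewer KAP1-deficient reads than Myc, and 120 held the same pair of counts. A call would have needed 1 KAP1-deficient read or none.

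**Figure D2:**
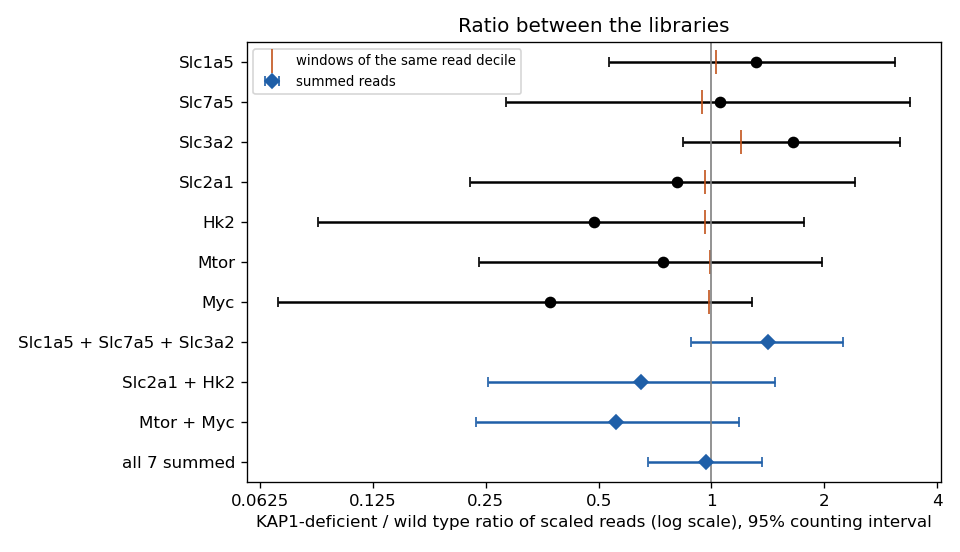
KAP1-deficient over wild type ratio of scaled reads (x axis, log scale) for each gene (black points) and for summed reads (blue diamonds), with exact 95% counting intervals as bars. Orange ticks mark the summed ratio of all windows in the same decile of reads. Every bar crosses 1, from Myc at 0.37 to Slc3a2 at 1.65.

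Summed over the 7 windows, the libraries did not differ beyond counting error. The members held 109 wild type and 50 KAP1-deficient reads, where 51.7 correspond to the ratio of library totals. The summed ratio was 0.97 (0.68 to 1.36), so for the set as a whole counting error leaves room for a decrease to 0.68 and an increase to 1.36. Slc3a2 gave 18 of the 50 KAP1-deficient reads, and without it the ratio was 0.78 (0.51 to 1.19). The median log2 ratio of the members was -0.25, beside -0.05 over all windows past the filter.

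The members fell on both sides of 1, each with an interval that held 1. The ratio was above 1 at the 3 amino acid transporter genes and below 1 at the other 4. The sum of Slc2a1 and Hk2 was 26 and 8 reads, a ratio of 0.65 (0.25 to 1.47), and that of Mtor and Myc 34 and 9, a ratio of 0.56 (0.24 to 1.19). The 4 together had a ratio of 0.60 (0.33 to 1.04), beside 1.42 (0.88 to 2.25) for the amino acid transporters. Overlap of these intervals is not a test of the difference. Relative to the ratios expected from the deciles of reads, the values were 0.61 and 1.29. These groups were formed with the values known, the difference between them was not tested, and in a single pair of libraries it cannot be told apart from library preparation.

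**Figure D3:**
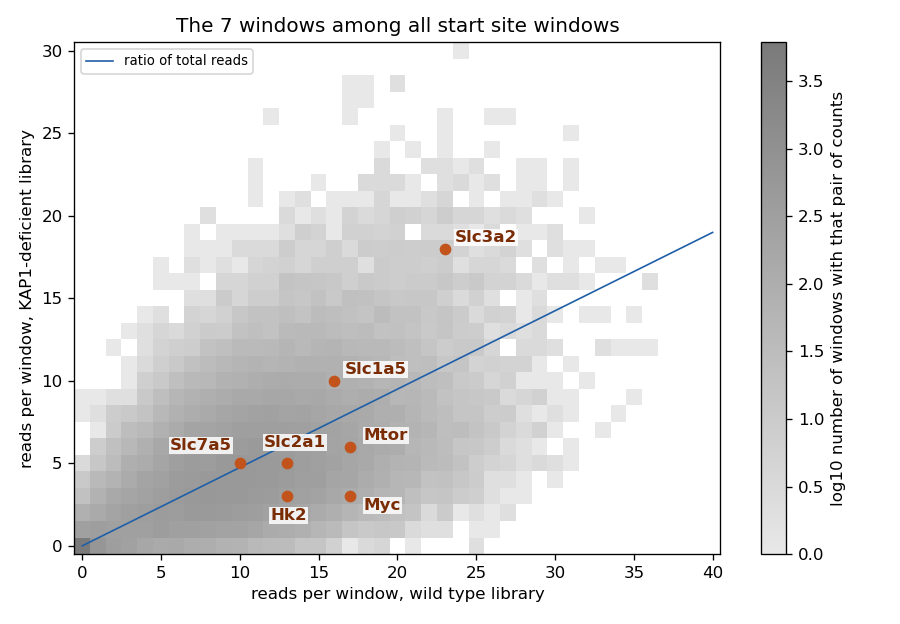
Reads per window in the wild type library (x axis) and the KAP1-deficient library (y axis), with grey for the log10 number of windows at each pair of counts, orange points for the 7 genes and a blue line at the ratio of library totals. The plot leaves out 4 windows with over 40 or over 30 reads. Slc1a5, Slc7a5 and Slc3a2 lie above the line and the other 4 genes below it, all among occupied pairs of counts.

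Levels relative to the other windows were above the middle for most members. In the wild type library 6 of the 7 held more than the median of 10 reads, and Slc7a5 was equal to it. In the KAP1-deficient library 5 held more than the median of 4, as did 22673 of all 51121 windows, and Hk2 and Myc held fewer. Of those 5 members, Slc2a1 and Slc7a5 held only 5 reads each. The members' median count was 16 and 5. No column is named as input, so the part of these reads that reflects H3K9me3 rather than background chromatin was not determined.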

How the data were processed

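The authors deposited raw read counts per window around transcription start sites, 1 column per genotype, per the file headers. The submitters' processing notes name Bowtie2 2.2.9, Picard 2.1.1, bedtools 2.26.0 and build mm10. What each tool did, how wide the windows were, which gene annotation was used and how duplicate reads were treated is not given in the sources used here. Strict mapping or duplicate filters would lower counts. Per the labels' protocols, chromatin was sonicated and libraries came from a DNA SMART ChIP-Seq kit. The 7 members were taken by Ensembl identifier with their symbols as listed for this work. The members and lists were chosen with earlier results of these data known. All 7 members are named with every value. Of 90 further pathway genes in 7 lists, 0 could be matched, because the gene table used here pairs no symbol with these identifiers, so they have no values. Poisson intervals are given for counts and Clopper-Pearson intervals, conditional on the reads of both libraries, for ratios. Reads are treated as independent molecules. Calls were limited to windows averaging 5 reads or more over the libraries, and log2 ratios had 2 reads added in proportion to library size. The calling was tested on simulated data with Poisson counts only, which hold no variation between libraries, so that source of false calls was not covered. Software was Python 3.11.15 with scipy 1.17.1, numpy 2.4.6, pandas 2.3.3 and matplotlib 3.10.9. All columns of values were used.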

Additional observations from a re-analysis of the deposited data

How the results depend on the processing

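The summed ratio of 0.97 for the 7 windows stayed within its counting interval in all 11 alternatives run. It was 0.99 with scaling by the median of ratios (a log2 shift of 0.04), 0.97 without the 2 most-read windows, 0.93 against the deciles of reads and 0.86 as a mean of log2 ratios. With each member left out in turn it ranged from 0.78 without Slc3a2 to 1.08 without Myc. The counting interval of 0.68 to 1.36 is wide and these sums share most of their reads. Staying within it therefore does not show stability. In 35 alternatives for single members (scaling, 0.5, 2 or 10 reads added, deciles), 0 values crossed to the other side of 1. Reads added in proportion to library size draw a ratio toward 1 and cannot move it across. Only the scaling and decile alternatives could have done so, and the scaling shift was small. With 10 reads added the Myc ratio was 0.65 and the Hk2 ratio 0.75. No member was called in either direction with 0.5 or 10 reads added, a 99% interval, no filter, a mean of at least 20 reads (1 member left), another scaling or decile ratios. Some settings called few windows of the whole table. With 10 reads added 114 were called lower and 111 higher, and with a 99% interval 100 and 238. With a mean of at least 20 reads, 0 were called lower and 35 higher. The absence of called members under these settings does not show stability, since at the members' depth a moderate change cannot be called under any of them. Enrichment over input was not run, because no column heading names an input. No paired analysis was possible because there was 1 library per genotype.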
